A study of Caenorhabditis elegans with 3 samples.

Results

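The genes described here encode cullins (cul), their RING partners (rbx), Skp1-related adaptors (skr) and ubiquitin-conjugating variants (uev) of Caenorhabditis elegans. They were chosen by name: each row of the deposited table whose platform symbol or current symbol starts with cul-, skr-, ubc-, uev- or rbx- and a digit was taken, and rows of a gene were averaged. This gave 26 genes on 29 rows, namely 5 cul, 2 rbx, 16 skr and 3 uev genes, out of 14795 named genes measured on all arrays. No row of the annotation used here carried a ubc name, so the ubc genes were not analysed here, and neither were cul-3, skr-4, skr-7, skr-10, skr-14 and skr-18. The nonmember let-70, the worm counterpart of a widely used ubiquitin-conjugating enzyme, was looked at after the values were seen and had a log2 ratio of 0.41 ± 0.14 (SD, n = 3, limma adjusted p = 0.0395).

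Whole-animal RNA of 2 genotypes was hybridised together on each of 3 arrays of 2 colours, numbered prep 1 to prep 3. In fem-1(lf), the activity of fem-1 is lost and the germline makes oocytes but no sperm. In fem-3(gf), fem-3 is overactive and the germline makes sperm but no oocytes. The labels give neither the allele names nor the age, temperature or karyotype of the animals. A value is the log2 ratio of the channels, read as fem-1(lf) over fem-3(gf). The labels name no dye, so that direction is likely and not settled: the descriptions put fem-1(lf) before fem-3(gf), 19 of 19 sperm genes had ratios below 0 and 18 of 18 oocyte genes had ratios above 0, with medians of -4.86 and 2.67. Both lists were chosen with earlier results of these data known. Whether each prep was a separate culture is not stated, so the spread between arrays may be technical. A gene was called where its adjusted p was under 0.05 in limma, fitted on all 19731 features.

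Cullin-RING ligases attach ubiquitin to chosen proteins and so mark most of them for the proteasome. The cullin is the scaffold: one end holds a RING protein, which recruits the ubiquitin-loaded conjugating enzyme, and the other holds an adaptor and a substrate receptor. CUL-1 uses Skp1-related adaptors and F-box proteins, CUL-2 uses elongins, CUL-3 uses BTB proteins and CUL-4 uses DDB-1. The worm has an expanded set of Skp1-related genes. In the germline, CUL-2 complexes act in the meiotic divisions and in the removal of maternal proteins, and a CUL-2 complex with FEM-1, FEM-2 and FEM-3 degrades the sex determination factor TRA-1, which lets germ cells become sperm.

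Most of the ligase genes had higher RNA levels in the oocyte-making animals. Of the 26 genes, 15 were higher in fem-1(lf) (57.7%), 2 were higher in fem-3(gf) (7.69%) and 9 did not pass. Over the whole table, 21.0% of features passed with a higher level in fem-1(lf), and 23.7% passed in the opposite direction. The median log2 ratio of the 26 genes was 0.68, against -0.10 for all features. The ratios ran from -0.42 for cul-6 to 2.76 for skr-9, and the 7 genes that were at least 2-fold higher in fem-1(lf) were cul-5 and 6 skr genes. None of the 26 was 2-fold higher in fem-3(gf). In whole animals, fewer cells of a type and less RNA per cell cannot be told apart, and the oocyte and sperm genes above moved with the genotype; their part in these ratios was not tested. Where 0 is set also matters: as deposited, 47.03% of the calls among all features were on the fem-1(lf) side, against 76.1% after each array was centred on muscle, intestine, cuticle and neuron genes. Under that centring 18 of the 26 genes passed as higher in fem-1(lf) and 0 in the other direction, beside 36.2% and 11.4% of all features.

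**Figure D1:**
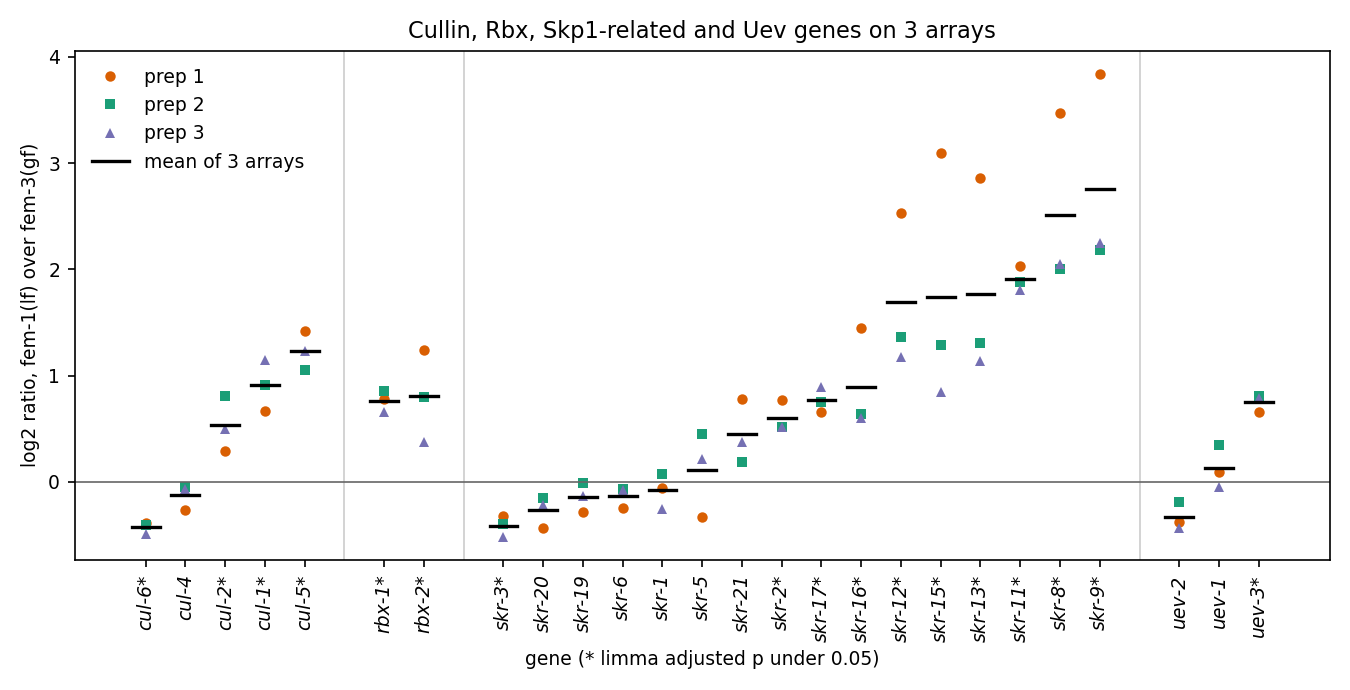
The log2 ratio of fem-1(lf) over fem-3(gf) is plotted for each of the 26 genes, grouped by family and ordered by mean, with 1 point for each of the 3 arrays and a bar for their mean. The skr genes run from -0.41 for skr-3 to 2.76 for skr-9, and the prep 1 array lies far above the others for skr-8, skr-9, skr-12, skr-13 and skr-15.

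On the deposited scale the cullin genes fell on different sides of 0. The highest was cul-5, whose product forms ligases with elongins, at 1.42, 1.05 and 1.23 on the arrays of preps 1, 2 and 3. Its mean was 1.23 ± 0.18 (SD, n = 3, 2.35-fold, adjusted p = 0.000965), and its lowest array lay above 1. The Skp1-binding cullin gene cul-1, whose mutants have extra cell divisions, had 0.67, 0.91 and 1.15. Its mean was 0.91 ± 0.24 (1.88-fold, adjusted p = 0.00401), with prep 1 the lowest array. The gene of the meiotic and sex determination cullin, cul-2, had 0.29, 0.81 and 0.50, and so lay above 0 on each array with a wide spread. Its mean was 0.53 ± 0.26 (1.45-fold, adjusted p = 0.0291), and it did not pass without prep 2 (0.40, adjusted p = 0.139) or without prep 3 (0.55, adjusted p = 0.111).

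The other cullin genes were near or below 0 on the deposited scale. The gene cul-4, which encodes the cullin that restrains DNA replication through the licensing factor CDT-1, had -0.26, -0.05 and -0.06. Its mean was -0.12 ± 0.12 (adjusted p = 0.425, 95% interval from -0.42 to 0.17). A change of 1.45-fold, as cul-2 had, thus lay outside the interval in the fem-1(lf) direction on that scale. After centring on the somatic genes cul-4 was at 0.25 (adjusted p = 0.224). The gene cul-6, which encodes a cullin known from the response to intracellular pathogens and heat, had -0.38, -0.40 and -0.49. These arrays lay close together, and the mean of -0.42 ± 0.06 (1.34-fold higher in fem-3(gf)) passed the test as deposited (adjusted p = 0.0287). The call was lost with array medians set to 0 (-0.33, adjusted p = 0.0730) and after centring on the somatic genes (-0.05, adjusted p = 0.819), and also without prep 2 (-0.44) or prep 3 (-0.39).

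The difference between cul-1 and its close paralog cul-6 was larger than the spread between arrays. The log2 ratio of cul-6 was below that of cul-1 by 1.05, 1.31 and 1.64 on preps 1, 2 and 3, as the per-array differences of -1.05, -1.31 and -1.64 show. The mean difference was -1.34 ± 0.29 (SD, n = 3, 95% interval from -1.79 to -0.88), with a limma adjusted p of 0.00151 in a fit over the differences of 14762 gene pairs. In that fit 46.5% of the pairs, nearly all of them neighbouring genes, were called different in either direction. With 8 pairs compared, 4 were called, which is close to the share among all pairs and so is no trait of these paralogs. The pairs and this fit were chosen after the values had been seen; the fit planned at first, of every feature against 1 reference gene, called 3 of the 8, of which skr-2 with skr-1 and cul-6 with cul-1 were called by both. By sign choices alone, an exact permutation test on 3 arrays cannot give a two-sided p below 0.25.

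Both RING genes were higher in fem-1(lf). The gene rbx-1, whose product serves most cullins, had 0.78, 0.85 and 0.66, close together on the 3 arrays. Its mean was 0.76 ± 0.10 (SD, n = 3, 1.70-fold, adjusted p = 0.00402). The gene rbx-2, whose product is the usual partner of CUL-5, had 1.24, 0.80 and 0.38, a wider spread with prep 1 at the top. Its mean was 0.81 ± 0.43 (1.75-fold, adjusted p = 0.0175), and it did not pass without prep 2 (0.81, adjusted p = 0.0648). The difference of rbx-2 minus rbx-1 was 0.46, -0.05 and -0.28, with a mean of 0.04 ± 0.38 and a 95% interval from -0.45 to 0.54 (adjusted p = 0.882), so the arrays did not separate them.

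The Skp1-related adaptors held both the largest ratios and several genes near 0. Of 16 measured, 9 were higher in fem-1(lf), 1 was higher in fem-3(gf) and 6 did not pass, with a median of 0.68. Over all features, 21.0% and 23.7% passed in these directions, and the median was -0.10. Of the 9 skr genes higher in fem-1(lf), 6 were at least 2-fold higher: skr-9, skr-8, skr-11, skr-13, skr-15 and skr-12. Among all 14795 named genes, skr-9 ranked 30 and skr-8 ranked 55 from the top on the fem-1(lf) side. These symbols were given by order of naming, so a number says nothing of a role. Since Skp1-related genes resemble each other, cross-hybridisation between their spots is possible, and it was not tested.

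The genes of the chromosome IV cluster were the highest group. In the gene table, skr-13, skr-9, skr-8 and skr-12 follow each other with 0 genes between them. The gene skr-9 had 3.84, 2.18 and 2.25 on preps 1, 2 and 3, with a mean of 2.76 ± 0.94 (SD, n = 3, 6.76-fold, adjusted p = 0.00184). The gene skr-8 had 3.47, 2.00 and 2.05, with a mean of 2.51 ± 0.84 (5.69-fold, adjusted p = 0.00181). Both inner genes had their lowest value on prep 2. The outer gene skr-13 had 2.86, 1.31 and 1.14, with a mean of 1.77 ± 0.95 (3.41-fold, adjusted p = 0.00978). The outer gene skr-12 had 2.53, 1.37 and 1.17, with a mean of 1.69 ± 0.74 (3.23-fold, adjusted p = 0.00519). On each of the 3 arrays, skr-13 and skr-12 lay below skr-8 and skr-9.

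**Figure D2:**
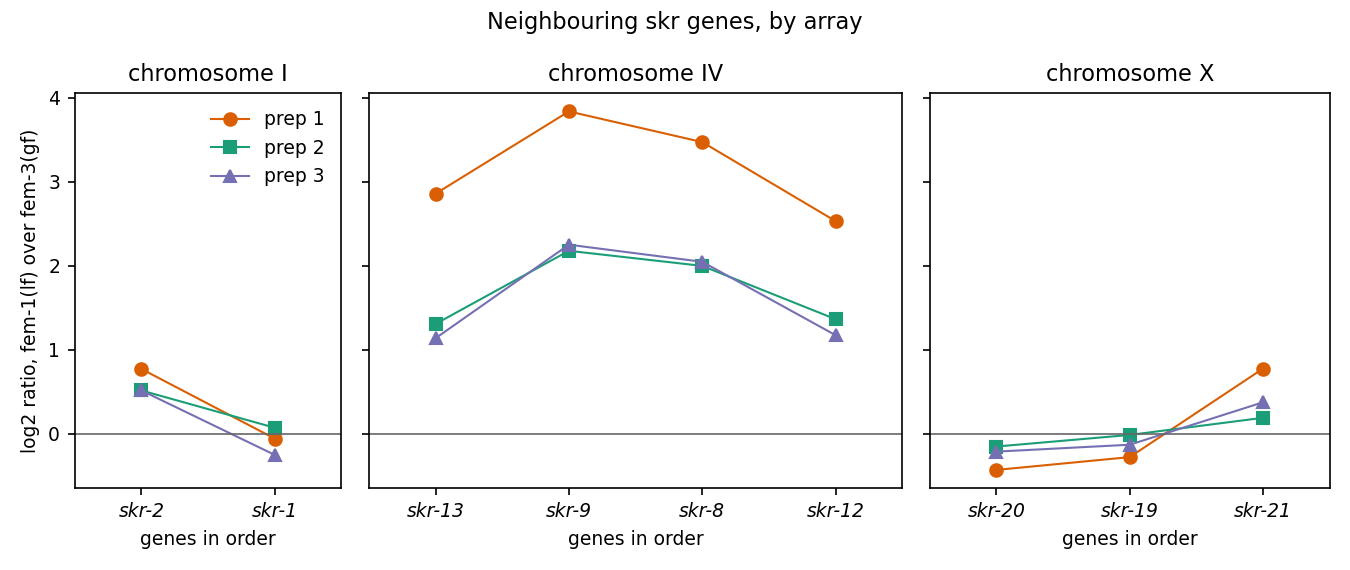
The log2 ratio of fem-1(lf) over fem-3(gf) is plotted for skr genes that are next to each other in the gene table, in their order on chromosomes I, IV and X, with 1 line for each array. On chromosome IV the lines of the 3 arrays have the same shape, with skr-9 at the top, and prep 1 lies above preps 2 and 3, while on chromosome X skr-20 and skr-19 lie below 0 on each array.

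The step between inner and outer genes of the cluster was steadier than the ratios themselves. The difference of skr-9 minus skr-13 was 0.98, 0.87 and 1.11, with a mean of 0.99 ± 0.12 (SD, n = 3, 95% interval from 0.58 to 1.40, adjusted p = 0.00356). The difference of skr-12 minus skr-8 was -0.94, -0.63 and -0.87, with a mean of -0.82 ± 0.16 (interval from -1.24 to -0.40, adjusted p = 0.00877). Leaving out prep 3 ended that call (adjusted p = 0.0639). Neither step passed in the fit planned at first (adjusted p = 0.113 and 0.133). In the fit over gene pairs, 46.5% of all pairs were called. Between the inner genes, skr-8 minus skr-9 was -0.36, -0.18 and -0.20, below 0 on each array. The mean of -0.25 ± 0.10 did not pass (interval from -0.66 to 0.16, adjusted p = 0.274).

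The prep 1 array stood apart for this cluster and for skr-15. Prep 1 exceeded the mean of preps 2 and 3 by 1.45 for skr-8, 1.62 for skr-9, 1.26 for skr-12, 1.64 for skr-13 and 2.03 for skr-15. An excess over 1, a limit set after the values were seen, was found for these 5 of the 26 genes (19.2%), against 1.99% of all features. Among genes called at least 2-fold higher in fem-1(lf) it was found for 5 of 7 members (71.4%), against 11.3% of 1664 features. The mean used for that filter includes prep 1, so these shares are a description and not a test. Of the 5 genes, skr-8, skr-9, skr-12 and skr-13 lie side by side and may cross-hybridise, so they may not be separate observations. It was also seen for 7 of 18 oocyte genes, whose median excess was 0.94, and for 0 of 19 sperm genes. The excess is signed, and the sperm genes leaned to the other side, with a median of -0.34 and 2 below -1. Of all features, 582 lay below -1 and 392 above 1. The part of oocyte and sperm genes in the members' excess was not tested. Without prep 1 the log2 ratios were 2.02 for skr-8, 2.22 for skr-9, 1.27 for skr-12, 1.22 for skr-13 and 1.07 for skr-15. All 5 calls held without prep 1, with adjusted p-values between 0.000277 and 0.00657.

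**Figure D3:**
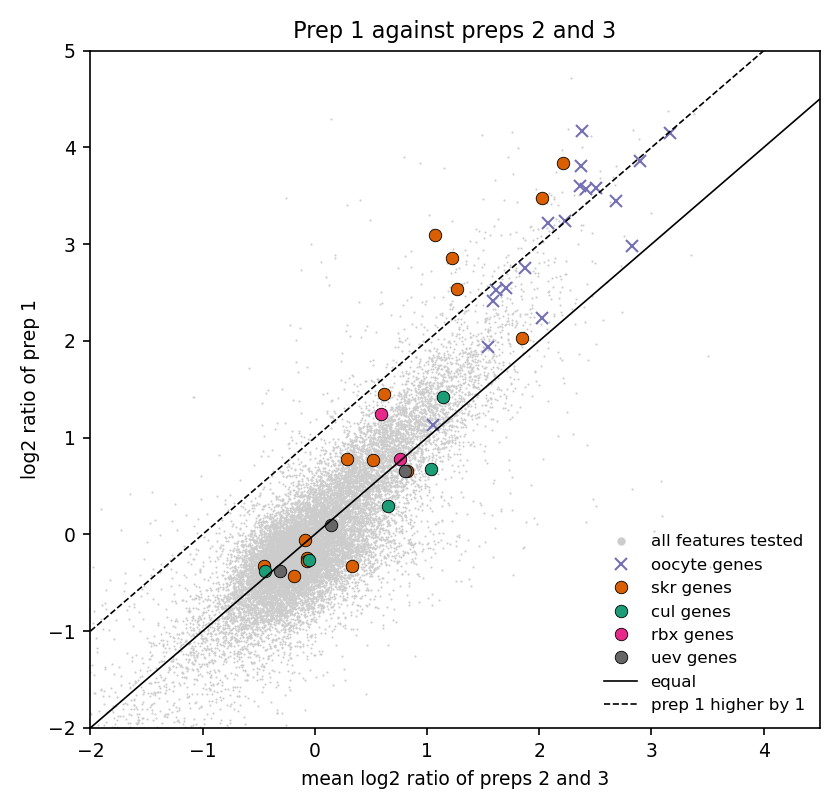
The log2 ratio on the prep 1 array is plotted against the mean log2 ratio of preps 2 and 3 for all features tested (grey, those within the axes), for oocyte genes (crosses) and for the 26 genes (coloured by family); the solid line is equality and the dashed line a prep 1 value higher by 1. The 5 skr genes above the dashed line are skr-8, skr-9, skr-12, skr-13 and skr-15, whereas skr-11 and the cul genes lie near the solid line.

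Outside the cluster, skr-11 and skr-15 were also high. The gene skr-11 on chromosome V, which the current gene table lists as a pseudogene, had 2.03, 1.88 and 1.80, the tightest of the high values. Its mean was 1.91 ± 0.12 (SD, n = 3, 3.75-fold, adjusted p = 0.000135). The gene skr-15 on chromosome II had 3.10, 1.29 and 0.85, with a mean of 1.74 ± 1.19 (3.35-fold, adjusted p = 0.0212). Prep 1 raised that mean and widened its spread, and without prep 1 the mean was 1.07 (adjusted p = 0.00657). More modest values belonged to skr-16 on chromosome IV, at 1.45, 0.64 and 0.60, with prep 1 again the highest. Its mean was 0.90 ± 0.48 (1.86-fold, adjusted p = 0.0156). The gene skr-17 on chromosome II had 0.66, 0.75 and 0.90, with a mean of 0.77 ± 0.12 (1.70-fold, adjusted p = 0.00428) and prep 1 the lowest array.

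The neighbours skr-1 and skr-2 on chromosome I had different ratios. SKR-1 is the main worm Skp1 and SKR-2 its close paralog, and both bind CUL-1. The gene skr-1 had -0.06, 0.07 and -0.25, with a mean of -0.08 ± 0.16 (SD, n = 3, adjusted p = 0.630, 95% interval from -0.39 to 0.23). The gene skr-2 had 0.77, 0.52 and 0.52, above each value of skr-1. Its mean was 0.60 ± 0.15 (1.52-fold, adjusted p = 0.0115), and it did not pass without prep 3 (0.64, adjusted p = 0.0542). The difference of skr-2 minus skr-1 was 0.83, 0.44 and 0.77, with a mean of 0.68 ± 0.21 (interval from 0.25 to 1.11, adjusted p = 0.0206). Its size held without prep 3 (0.64), but the call did not (adjusted p = 0.123). Of all gene pairs in the fit, 46.5% were called. The main Skp1 gene skr-1 thus had a ratio near 0 as deposited, and 0.29 after centring on the somatic genes (limma adjusted p = 0.188). The RNA of cul-1 was 1.88-fold higher in fem-1(lf) as deposited (log2 ratio 0.91, and 1.28 after that centring). The difference between skr-1 and cul-1 was not tested.

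The remaining skr genes lay near 0 on the deposited scale. SKR-3 and SKR-5, which work with CUL-6 in the pathogen and heat response, are encoded on chromosome V. The gene skr-3 had -0.32, -0.40 and -0.51, with a mean of -0.41 ± 0.10 (SD, n = 3, 1.33-fold higher in fem-3(gf), adjusted p = 0.0345). The call was lost after centring on the array median (-0.32, adjusted p = 0.0901) and on the somatic genes (-0.04, adjusted p = 0.869), and without prep 2 (-0.42) or prep 3 (-0.36). The gene skr-5 had -0.33, 0.45 and 0.21, on both sides of 0. Its prep 2 value is the mean of a pair of rows and the others come from 1 row, and its mean was 0.11 ± 0.40 (adjusted p = 0.632). The row measured on all arrays had a mean of 0.06. After centring on the somatic genes skr-5 passed as higher in fem-1(lf) (0.48, adjusted p = 0.0469). The gene skr-6, with 2 rows whose means were 0.00017 and -0.26, had a mean of -0.13 ± 0.10 (adjusted p = 0.40).

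No gene of the chromosome X cluster passed as deposited. The genes skr-20, skr-19 and skr-21 follow each other with 0 genes between them. The gene skr-20 had -0.43, -0.15 and -0.21, with a mean of -0.27 ± 0.15 (SD, n = 3, adjusted p = 0.130). The gene skr-19 had -0.28, -0.01 and -0.13, with a mean of -0.14 ± 0.13 (adjusted p = 0.378), and its rows gave -0.30 and 0.01. The gene skr-21 differed in sign, at 0.78, 0.19 and 0.38, with a mean of 0.45 ± 0.30 (adjusted p = 0.0589). It passed with array medians set to 0 (0.54, adjusted p = 0.0394), with arrays also scaled to the same spread (0.53, adjusted p = 0.0310) and after centring on the somatic genes (0.82, adjusted p = 0.00531), and it was 0.28 without prep 1. The difference of skr-21 minus skr-19 was 1.05, 0.20 and 0.51, with a mean of 0.59 ± 0.43 (95% interval from 0.07 to 1.11, adjusted p = 0.0644), which passed in the fit planned at first (adjusted p = 0.0487). Without prep 1 that difference was 0.35 (adjusted p = 0.194). That of skr-19 minus skr-20 was 0.12 ± 0.04 (interval from -0.28 to 0.53, adjusted p = 0.581).

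The uev genes encode proteins that resemble conjugating enzymes but lack the catalytic cysteine. The gene uev-1 had 0.10, 0.34 and -0.05. Its mean was 0.13 ± 0.20 (SD, n = 3, adjusted p = 0.450), and it passed after centring on the somatic genes (0.50, adjusted p = 0.0360). The gene uev-2 had -0.38, -0.19 and -0.43, below 0 on each array, with a mean of -0.33 ± 0.13 (adjusted p = 0.0699). The gene uev-3, known from a kinase pathway in worm neurons, was the one that passed as deposited, at 0.66, 0.81 and 0.79. Its mean was 0.75 ± 0.08 (1.69-fold higher in fem-1(lf), adjusted p = 0.00412), and its lowest array lay above the highest of uev-1.

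The listed substrate receptors and linkers of the cullins mostly had ratios above 0. The list also holds fem-1, fem-2 and fem-3, whose own values follow below, and of these fem-2 and fem-3 passed. Of 22 measured, 18 passed as higher in fem-1(lf) (81.8%) and 0 as higher in fem-3(gf) by limma (0 at an unadjusted p under 0.05). Over all features, 21.0% and 23.7% passed in these directions. The other 4 of the 22 did not pass, the lowest at -0.23, and the median log2 ratio was 1.04, against -0.10 for all features. The largest were zif-1, which encodes a CUL-2 receptor that removes germline proteins from somatic cells of the embryo, and zyg-11, which encodes a CUL-2 receptor for meiosis. The gene zif-1 had 2.81, 2.58 and 2.42, with a mean of 2.60 ± 0.20 (SD, n = 3), and zyg-11 had a mean of 1.77 ± 0.30. Both lay above cul-2 on each array.

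The FEM genes, which act with CUL-2 and are part of the list above, had unlike ratios. The gene fem-2, which encodes a phosphatase of the complex, had 1.53, 1.104 and 1.33, with a mean of 1.32 ± 0.21 (SD, n = 3, 2.50-fold, adjusted p = 0.000872). The gene fem-3, mutated in the fem-3(gf) animals, had 2.18, 1.62 and 1.47, with a mean of 1.76 ± 0.38 (adjusted p = 0.000751). The gene fem-1, the substrate receptor mutated in the fem-1(lf) animals, had -0.20, 0.13 and 0.19, with a mean of 0.04 ± 0.21 (adjusted p = 0.827). Both fem-2 and fem-3 were therefore higher in the oocyte-making animals on each array, whereas the fem-1 values lay on both sides of 0. Both mutated genes were measured at the RNA level, which does not check the labels, because no source used here says that an allele deletes what the probe reads.

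Genes that charge and reset the cullins also mostly had ratios above 0. Cullins are switched on when the small protein NEDD8 is attached to them and reset when the COP9 signalosome removes it. Of 14 genes listed for this cycle 7 were measured on all arrays, and the others, 6 csn genes among them, were not analysed here. Of the 7, 5 passed as higher in fem-1(lf), beside 21.0% of all features, and 0 as higher in fem-3(gf) by limma (0 at an unadjusted p under 0.05), beside 23.7%. The median log2 ratio was 0.64. The largest were dcn-1, which encodes a NEDD8 ligase for cullins, at 1.06 ± 0.05 (SD, n = 3), and ula-1, which encodes part of the NEDD8-activating enzyme, at 0.80 ± 0.33. The members that did not pass were rfl-1, the other part of that enzyme, at 0.09 ± 0.08 and cand-1, which encodes an exchange factor of cullin complexes, at 0.51 ± 0.59, with 1.16 on prep 1 and 0.02 on prep 3.

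**Figure D4:**
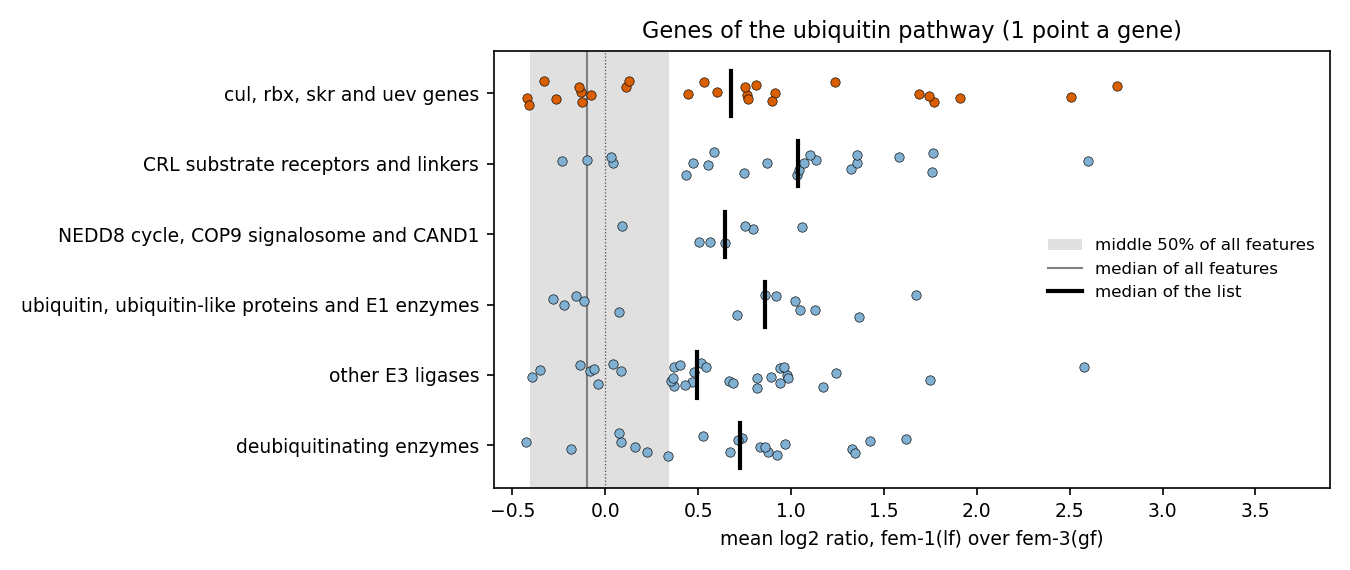
The mean log2 ratio over 3 arrays is plotted for each gene of 6 groups of the ubiquitin pathway, 1 point a gene, with the median of each group as a bar; points are jittered vertically, and the grey band holds the middle 50% of all features. The medians of the groups lie between 0.50 and 1.04, to the right of the band, while single genes of each group lie within it.

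In 3 further lists of the ubiquitin pathway, 0 genes were called higher in fem-3(gf) by limma, beside 23.7% of all features, and the counts on the other side stand beside 21.0%. At an unadjusted p under 0.05 there were 0 on that side for ubiquitin and its relatives, 2 for other ligases and 1 for deubiquitinating enzymes. Of 13 genes of ubiquitin, related modifiers and their activating enzymes, 8 were higher in fem-1(lf), with a median log2 ratio of 0.86. The largest were smo-1, which encodes the modifier SUMO, at 1.67 ± 0.39 (SD, n = 3), and uba-2, which encodes part of its activating enzyme, at 1.36 ± 0.38. Of 32 other ligase genes, 20 were higher, with a median of 0.50, led by lin-41, a regulator of oocyte growth and meiotic maturation, at 2.58 ± 0.72, and rfp-1 at 1.75 ± 0.32. Of 20 deubiquitinating enzyme genes, 13 were higher, with a median of 0.72, led by otub-3 at 1.62 ± 0.25 and rpn-11, which encodes the deubiquitinating subunit of the proteasome lid, at 1.42 ± 0.24.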

How the data were processed

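RNA was compared on 3 arrays of 2 colours. The authors deposited log2 ratios of the channels; how they scaled or centred them, corrected background or removed dim spots is not given in the sources used here. Base 2 was read off the values: raising 2 to each gave whole thousandths in all but 4 of 64209 cases (tolerance 0.01), against 3.11% in base 10 and 2.28% in base e. Medians of preps 1, 2 and 3 were -0.15, -0.07 and -0.07. Intensities were not analysed here, and the number of arrays limits precision.

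Rows were named by gene ID (16360), accession (8) or the platform's symbol (82, skr-21 among them), with gene order from assembly WBcel235. Rows of a gene were averaged, and 19731 features on all 3 arrays were tested as deposited in limma 3.58.1 under R 4.3.3 (lmFit against 0, eBayes, two-sided, Benjamini-Hochberg over all features). Adjusted p-values are limma's. In simulated data of 19731 features this fit recovered 54 of 100 features changed by 1 (log2) and 96 of 100 changed by 2, with 9 false among 159 calls.

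Paralogs were planned as best matches by protein identity, tested by a fit of every feature against 1 reference gene. No protein sequences were used here, and on simulated data that fit made 71 false among 204 calls, since all differences share the reference's error. So pairs were taken from gene order and textbook knowledge, and limma was fitted over the differences of all consecutive measured genes plus 2 added pairs (14762), with 7 false among 225 calls on simulated data. It recovered 29 of 200 simulated differences of 1 and 189 of 200 of 2, the planned fit 35 and 98 of 100. The simulated arrays had independent noise and few changed features, whereas 46.5% of the measured pairs were called. These rates therefore need not hold for the data, and a pair that did not pass may still differ. Pairs, this fit and the limit on the prep 1 excess were chosen after the data were seen; the planned fit called 3 of the 8 pairs and this one 4. Members and lists were chosen with earlier results of these data known. Genes named were all members, the 2 largest called on each side of each list, and fem-1, fem-2 and fem-3; let-70, rfl-1 and cand-1 were chosen after their values were seen. Alternatives were 3 ways of centring or scaling, features on at least 2 arrays, robust eBayes, single rows of a gene, a threshold of 0.01 and leaving out each prep. Figures were drawn with matplotlib 3.10.9.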

Additional observations from a re-analysis of the deposited data

How the results depend on the processing

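Of the 17 genes called, 12 kept direction and call at an adjusted p under 0.05 under all alternatives run. The exceptions were cul-2, cul-6, rbx-2, skr-2 and skr-3, whose values are above. All 9 genes not called changed sign or call under at least 1 alternative. Counts called higher in fem-1(lf) stayed within 1.5 times, between 10 (adjusted p under 0.01) and 18 (somatic centring) for all 26 genes, except that 2 uev genes were called after centring on somatic genes and 1 rbx gene at an adjusted p under 0.01. The counts called higher in fem-3(gf) (2 in all, 1 cul and 1 skr) were 0 after median centring, somatic centring, scaling and at the stricter threshold. Without 1 prep, those counts ran from 0 to 2 in all and from 0 to 1 for cul and for skr, and the rbx count on the other side from 1 to 2.

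Reversals were of uncalled values. After median centring and scaling skr-1 was at 0.016 and 0.017. After centring on somatic genes cul-4 was at 0.25, skr-1 0.29, skr-6 0.24, skr-19 0.23, skr-20 0.11 and uev-2 0.040. Without 1 prep, skr-1 ran from -0.15 to 0.0072, skr-5 from -0.059 to 0.33 and rbx-2 minus rbx-1 from -0.17 to 0.21. By single rows, skr-6 was at 0.00017, skr-19 at 0.014, skr-19 minus skr-20 at -0.030, and skr-21 minus skr-19 at 0.74, which then passed, or 0.43, which did not. With every feature set against 1 reference gene, skr-9 minus skr-13 (0.99) and skr-12 minus skr-8 (-0.82) did not pass and skr-21 minus skr-19 (0.59) did. Leaving out 1 prep gave 0.61 to 0.80 for skr-2 minus skr-1 and -0.91 to -0.75 for skr-12 minus skr-8. The causes were not tested. Each array holds a prep of both genotypes, so the test of the log2 ratio against 0 already compares them within arrays. No further pairing was possible, because all 3 samples form 1 group.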
